A study of Mus musculus with 8 samples.

Results

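The AP-1 family was examined in primary mouse macrophages grown from bone marrow and exposed to hepcidin, through 10 genes: Fos, Fosb, Fosl1, Fosl2, Jun, Junb, Jund, Atf3, Maff and Batf. They were taken from the expression table by Entrez gene number, and each was found once among the 24011 genes of the arrays. The macrophages came from wild-type mice aged 8 to 10 weeks and were cultured for 7 days in medium conditioned by L cells, a source of the macrophage growth factor M-CSF. They were then scraped, seeded again and treated on the next day. In the Hepcidin group, 4 samples received hepcidin at 10 µg/ml for 1 h before lysis, and in the PBS group 4 samples received PBS. Hepcidin is a peptide hormone of iron balance, which removes the iron exporter ferroportin from the cell surface. Samples carry the numbers 1 to 4 in each group, without a word on whether a number is an animal, a culture or a day, and same-numbered arrays are called a pair here. Nothing says that samples came from separate animals, so the p-values reflect the scatter of these samples alone, and that scatter may be technical.

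AP-1 is a transcription factor made of 2 proteins that hold each other through a leucine zipper and grip DNA with the basic region beside it. Jun proteins pair with each other or with Fos proteins, while Fos proteins need a Jun partner. ATF, BATF and small MAF proteins carry the same kind of domain and join or replace these partners. In macrophages, MAP kinases activated by pattern recognition receptors or cytokines phosphorylate AP-1 proteins already present and switch on several of their genes within minutes, with no need for new protein.

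Expression values are log2 signals normalized by the authors, so a difference of 1 is a doubling of signal. The array medians lay between 4.87 and 4.95, and arrays correlated at 0.989 to 0.996 across genes; the number of arrays limits the precision. Of 8 macrophage markers fixed for this check, 7 were measured, and all 7 had a mean level of at least 6, from 8.34 to 13.1. Marker lists of neutrophils and their precursors (10 of 10 measured), fibroblasts (6 of 6) and dendritic cells (4 of 4) were also read. A mean level of at least 6 was reached by 4, 0 and 1 of them, and the highest stood at 7.06, 5.74 and 8.44. The lists had 0 members past the test for hepcidin, but so had the whole table of 24011 genes, so this says nothing about purity. As a gauge of background, 16 measured markers of B, T, NK and endothelial cells had a median level of 3.88 and a 90th percentile of 6.49, and the highest of them, Kdr, stood at 7.51. In bulk RNA, fewer cells of a type cannot be told apart from less RNA per cell.

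After 1 h of hepcidin, Junb and Maff were the AP-1 genes higher in all 4 pairs, at 1.35-fold and 1.27-fold of the PBS mean. Fos was 1.22-fold higher on average and higher in 3 of 4 pairs. Jun, Jund, Fosl2 and Batf were 1.02-fold to 1.12-fold higher, and Fosb, Fosl1 and Atf3 lay at 0.97-fold to 0.99-fold. None of the 10 passed an adjusted p of 0.05 in limma, where p-values were adjusted over all genes and 0 of 24011 genes passed (0%). Nor did any pass with the sample number as a block, a fit that compares arrays within pairs and in which 1 gene of the table passed (0.00416%).

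At an unadjusted p under 0.05 there were 2 members without the block, Junb and Maff, against 686 genes or 2.86% of the table. With the block there were 3, Fos in addition, against 1179 genes or 4.91%. The 2 members higher in all 4 pairs compare with 5.69% of genes, and the 7 members with a positive change compare with 50.4%. In 0 of the 10 were the PBS and hepcidin ranges apart, against 1.88% of genes in either direction. The median log2 change of the 10 members was 0.10, beside 0.00 for all genes. The members were chosen with earlier results of these data known, so these comparisons describe them and test nothing.

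**Figure D1:**
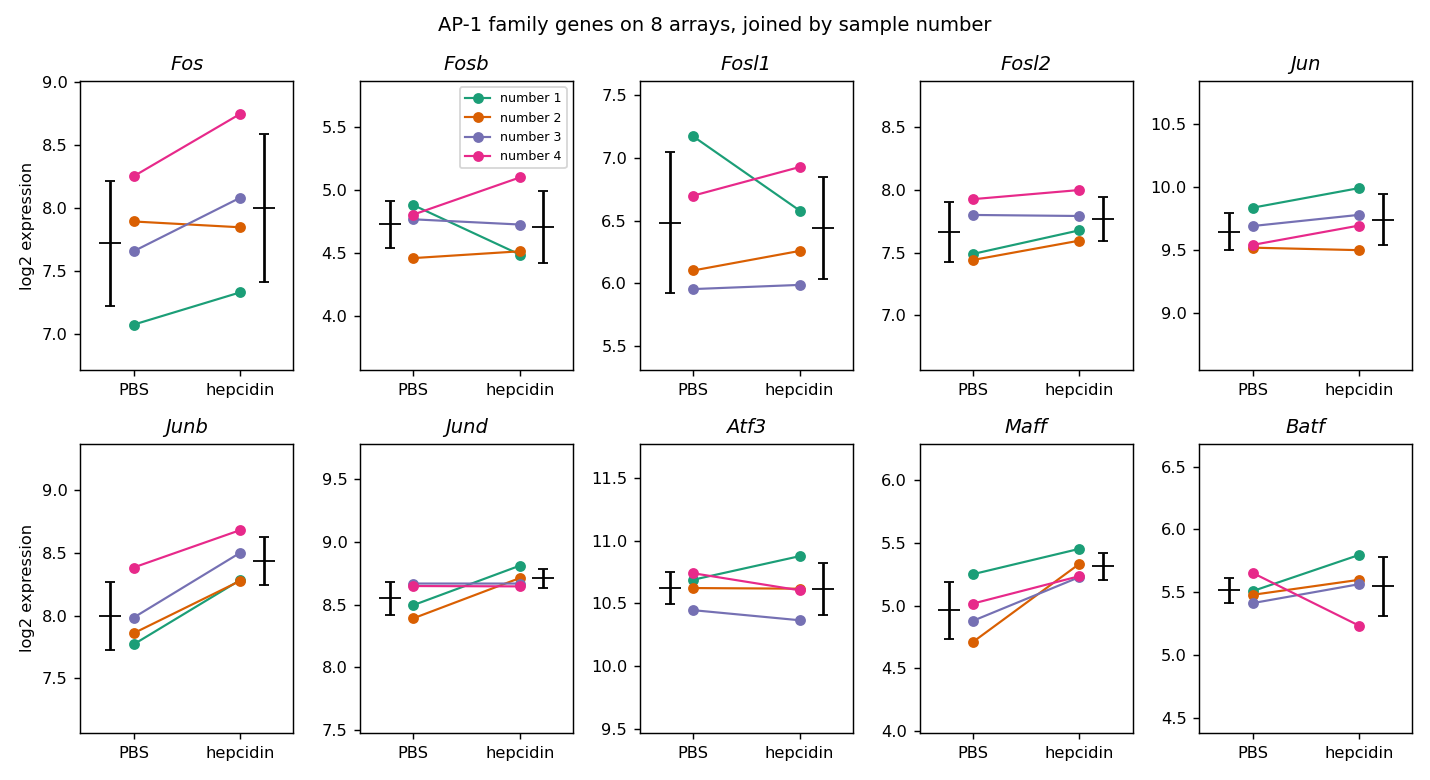
Log2 expression of the 10 AP-1 genes on 8 arrays; lines join the PBS and the hepcidin array of the same number (colours), black marks give the mean ± SD of 4 arrays, and every panel spans the same height. All 4 lines slope upwards for Junb and Maff, and number 1 is lowest and number 4 highest for Fos in both groups. Lines of different numbers cross in every panel except those of Fosl2 and Jun.

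Among the Jun genes, whose proteins form the obligatory side of an AP-1 dimer, Junb showed the widest difference. JunB is made within minutes of stimulation and can dampen or replace c-Jun depending on its partner. The Junb values with PBS were 7.77, 7.86, 7.98 and 8.38 on arrays 1 to 4, and with hepcidin 8.28, 8.28, 8.50 and 8.68. The 3 lowest values were PBS arrays, and PBS array 4 lay above hepcidin arrays 1 and 2, so the groups overlapped by that array. The means were 8.00 ± 0.27 with PBS and 8.43 ± 0.19 with hepcidin (SD, n = 4 each). The pair differences were 0.51, 0.42, 0.52 and 0.30, all of one sign. The log2 change of 0.44 ± 0.14 (SE) had a 95% confidence interval from 0.11 to 0.76, or 1.08-fold to 1.69-fold. Its unadjusted p of 0.0132 was the 158th smallest of all genes, with an adjusted p of 1.00 in limma. With the block the SE was 0.07, the interval ran from 0.26 to 0.61, and the unadjusted p of 0.000452 was the 22nd smallest, with an adjusted p of 0.460. With single arrays left out the change lay between 0.35 and 0.56.

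Jun, the founding member and itself a target of AP-1, stood at 9.84, 9.52, 9.69 and 9.54 with PBS and at 9.99, 9.50, 9.78 and 9.69 with hepcidin. Its pair differences of 0.16, -0.02, 0.09 and 0.15 were smaller than the gap between the highest and the lowest PBS array, and the groups overlapped over most of their range. The log2 change was 0.09 ± 0.12 (SE), with an interval from -0.17 to 0.36, and it moved from 0.01 without hepcidin array 1 to 0.18 without hepcidin array 2. Jund, whose protein is present in many resting cells, was at 8.50, 8.39, 8.67 and 8.65 with PBS and at 8.81, 8.71, 8.67 and 8.64 with hepcidin. Pairs 1 and 2 differed by 0.31 and 0.32, and pairs 3 and 4 by 0.00 each, so that its mean change of 0.16 ± 0.09 (SE) rested on pairs 1 and 2. The interval ran from -0.04 to 0.35.

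Among the Fos genes, Fos itself had the largest mean difference. Fos is the textbook immediate early gene, with an mRNA that appears and decays within an hour or so of a stimulus. Its values with PBS were 7.07, 7.89, 7.66 and 8.25, and with hepcidin 7.33, 7.85, 8.08 and 8.75. Both arrays numbered 1 were the lowest and both numbered 4 the highest, and the groups overlapped broadly. The means were 7.72 ± 0.50 with PBS and 8.00 ± 0.59 with hepcidin (SD, n = 4 each), and the pair differences were 0.26, -0.05, 0.43 and 0.50. The log2 change of 0.28 had an SE of 0.31 and an interval from -0.40 to 0.96 without the block. With the block the SE was 0.10 and the interval ran from 0.05 to 0.52. The unadjusted p was then 0.0242 and the p adjusted over all genes 0.967 in limma. Leaving out 1 array moved the change from 0.03, without hepcidin array 4, to 0.51, without hepcidin array 1. Without PBS array 1 it was 0.07, and without both arrays numbered 1 it was 0.29.

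Fosl2, which encodes the Fos-related protein Fra-2, differed little. It stood at 7.49, 7.44, 7.80 and 7.92 with PBS and at 7.68, 7.60, 7.79 and 8.00 with hepcidin, a log2 change of 0.10 ± 0.13 (SE) with an interval from -0.19 to 0.39. The ranges of both groups largely overlapped, and the change moved from 0.02 without hepcidin array 4 to 0.19 without PBS array 4.

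Fosl1, which encodes Fra-1, a protein that builds up later than c-Fos, was at 7.17, 6.10, 5.96 and 6.70 with PBS and at 6.58, 6.26, 5.99 and 6.93 with hepcidin. Pair 1 differed by -0.59 while the other 3 pairs were higher by 0.03 to 0.23, and the mean change was -0.04 ± 0.28 (SE), with an interval from -0.66 to 0.57. Fosb, an early gene with a longer and a truncated product, ranged from 4.46 to 4.88 with PBS and from 4.49 to 5.10 with hepcidin. Its pair differences ran from -0.39 in pair 1 to 0.30 in pair 4, around a mean of -0.02 ± 0.15 (SE). Both genes had PBS means, 6.48 and 4.73, below the background markers' 90th percentile, a range in which array ratios are compressed.

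Of the members outside the Jun and Fos subfamilies, Maff had the largest difference. MafF is a small MAF protein with a zipper but no activation domain, which works through its partners. Its values were 5.25, 4.71, 4.88 and 5.02 with PBS and 5.45, 5.33, 5.23 and 5.23 with hepcidin. Hepcidin values lay close together at the top, and PBS array 1 alone reached into their range. The means were 4.96 ± 0.23 and 5.31 ± 0.11 (SD, n = 4 each), and the pair differences were 0.20, 0.62, 0.35 and 0.22. The log2 change of 0.35 ± 0.12 (SE) had an interval from 0.09 to 0.61. Its unadjusted p of 0.0145 was the 172nd smallest, and the p adjusted over all genes was 1.00 in limma. With the block the SE was 0.09, the interval 0.14 to 0.56, the unadjusted p 0.00539 and the adjusted p 0.784. Leaving out 1 array moved the change from 0.26, without PBS array 2, to 0.44, without PBS array 1. The PBS level lay below 5 of the 16 background markers, again in the compressed range.

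Atf3, a stress-induced factor known to restrain cytokine genes switched on through Toll-like receptors, was at 10.69, 10.62, 10.45 and 10.74 with PBS and at 10.88, 10.62, 10.37 and 10.60 with hepcidin. Its level was above all 16 background markers in both groups. The pair differences of 0.19, -0.01, -0.08 and -0.14 had no common sign, and the change of -0.01 ± 0.12 (SE) had an interval from -0.27 to 0.25, or 0.83-fold to 1.19-fold. Batf, which lacks an activation domain and joins Jun proteins and interferon regulatory factors on DNA, ranged from 5.41 to 5.65 with PBS and from 5.23 to 5.80 with hepcidin. It was higher by 0.12 to 0.29 in pairs 1 to 3 and lower in pair 4 (-0.42), and its mean change was 0.03 ± 0.12 (SE). Its PBS mean of 5.51 lay below 3 of the 16 background markers.

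**Figure D2:**
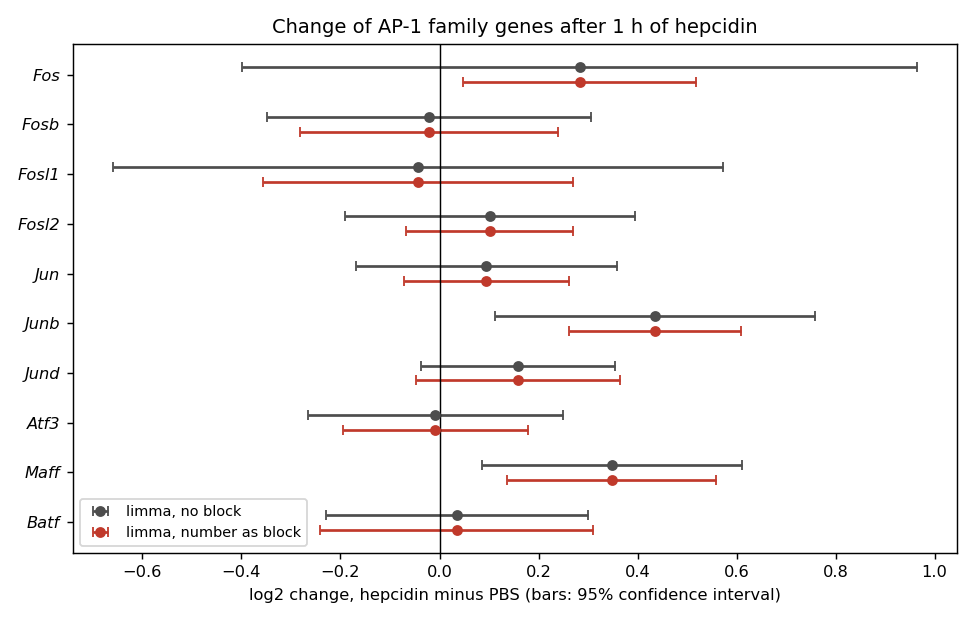
Log2 change (hepcidin minus PBS) of each AP-1 gene with its 95% confidence interval, without (grey) and with (red) the sample number as a block. The intervals of Junb and Maff lie above 0 in both fits and that of Fos with the block alone, where its SE falls from 0.31 to 0.10; none of the 10 genes passed after adjustment over all genes.

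Whether relatives changed unequally was tested on 5 within-array differences, with a two-sided exact permutation test over the 70 ways to choose 4 of the 8 arrays. Its smallest possible p was 0.0286, which for 1 difference alone becomes 0.143 after adjustment over the 5, and exchanging arrays within the 4 pairs could not pass at all. Junb exceeded Jun by 0.34 more with hepcidin than with PBS (exact p = 0.286, adjusted over the 5 tests 0.476), and in 4 of 4 pairs. Junb exceeded Jund by 0.28 more (exact p = 0.143, adjusted 0.357), again in 4 of 4 pairs. The change of Maff exceeded that of Mafk, another small MAF gene, by 0.44 (exact p = 0.0571, adjusted 0.286), with pair values of 0.11, 0.96, 0.54 and 0.16. For Fos the excess was 0.30 over Fosb (exact p = 0.486) and 0.18 over Fosl2 (exact p = 0.600), with 3 of 4 pairs positive for each and an adjusted value of 0.600 for both. Leaving out 1 array moved the excess of Fos over Fosb from 0.04, without PBS array 1, to 0.46, and that over Fosl2 from 0.01, without hepcidin array 4, to 0.38. None of the 5 differences passed, in a test that leaves the pairing out and could hardly let one pass. A p that misses the threshold does not show that 2 genes changed alike.

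Levels of some AP-1 genes, Fos above all, also differed between sample numbers in both groups. Averaged over both arrays of a number, Fos stood at 7.20, 7.87, 7.87 and 8.50 on numbers 1 to 4, a range of 1.30. The range over all genes had a median of 0.25. Without number 1 the range of Fos was 0.63. The other members had ranges from 0.12 for Jund to 0.90 for Fosl1. The range exceeded the size of the change with hepcidin in 8 of 10 members, all but Jund and Maff, beside 92.8% of all genes. A range of 4 means tends to exceed a difference of 2, so nothing is read from this count.

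In limma's F-test of the sample number with treatment in the model, 1 of 10 members passed over all genes, Fos, with an adjusted p of 0.0102, where 1345 genes passed (5.60%). Fosl1 (0.0570) and Junb (0.0752) had the next smallest adjusted p, and 5 members had an unadjusted p under 0.05, against 20.6% of all genes. The call of Fos was lost without both arrays numbered 1 (adjusted p 0.183 in the same F-test). With these fewer arrays the genes past the test fell to 166 (0.69%), so the loss is not particular to Fos. Junb, at 8.03, 8.07, 8.24 and 8.53 on numbers 1 to 4, was likewise lowest on number 1 and highest on number 4. Fosl2, at 7.58, 7.52, 7.80 and 7.96, was highest on number 4 and lowest on number 2. Fosl1 was high on numbers 1 and 4 (6.88 and 6.81) and low on 2 and 3 (6.18 and 5.97). Jun was highest on number 1 (9.91) and lowest on number 2 (9.51).

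Other gene lists differed between numbers as well, and their counts past the F-test compare with 5.60% of all genes. That share rose with level: when only the 9274 genes reaching a mean of 6 were tested, 31.2% passed. The list counts come from the test over all genes, so neither share fits them closely and no excess is read from them. The neutrophil and precursor markers had mean levels of 4.54 with PBS and 4.37 with hepcidin on number 1, against 5.41 to 5.98 on the other 6 arrays, and 8 of 10 passed the F-test. The 7 macrophage markers averaged 10.8 and 10.9 on number 1 and 11.3 to 11.4 elsewhere, and 2 of 7 passed the F-test. Their ranges between numbers were unequal, with 2.33 for Fcgr1 and 0.07 for Cd68. A list of 6 heat shock genes, which handling of cells can raise, stood at 7.54 and 7.61 on number 1, 7.67 and 7.70 on number 2, 8.06 and 8.14 on number 3 and 8.10 and 8.18 on number 4 (PBS first), and 3 of 6 passed the F-test. The part of these differences in the level of Fos was not tested.

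**Figure D3:**
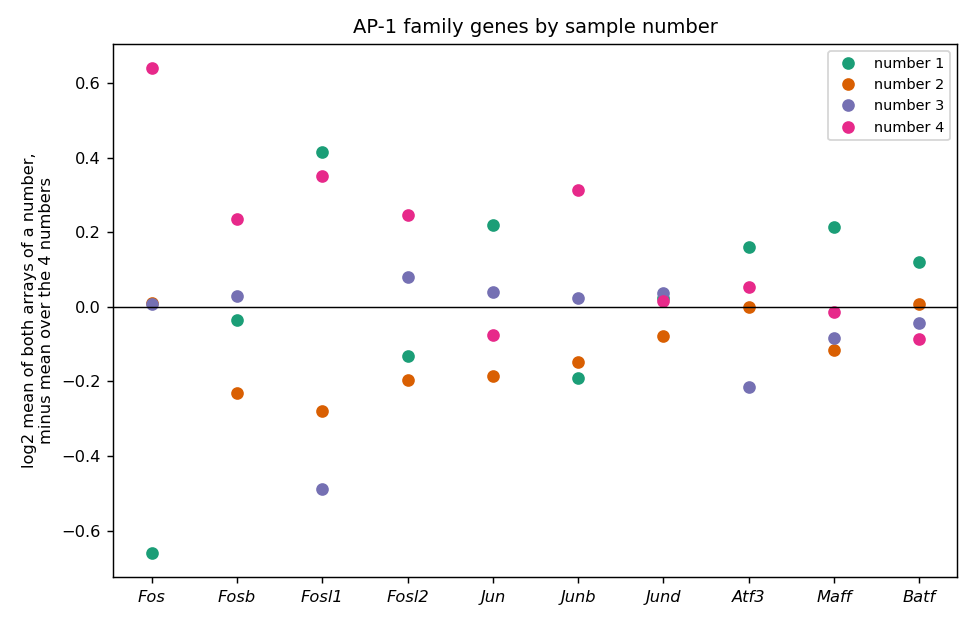
Mean log2 level of both arrays of a sample number, minus the mean over the 4 numbers, for each AP-1 gene. Fos spans 1.30 between number 1 (lowest) and number 4 (highest), Fosl1 spans 0.90 with numbers 1 and 4 high, and Jund spans 0.12.

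The sequences just before the transcription starts of Fos, Junb and Maff are shown because these were the members with an unadjusted p under 0.05 in a fit, and because early genes are switched on through short sites near their starts. They are RefSeq windows on GRCm38.p6, read 5′ to 3′ on the gene's strand and ending 1 base before the start, except that of Maff. Capitals mark letters that match a searched motif on either strand: the TPA response element TGANTCA that AP-1 binds, the cAMP response element TGACGTCA, its core TGACG, the TATA box TATAAA, and the CArG box of SRF and the NF-kB site by their usual consensus.
Fos, chr12:85473640-85473889, plus strand: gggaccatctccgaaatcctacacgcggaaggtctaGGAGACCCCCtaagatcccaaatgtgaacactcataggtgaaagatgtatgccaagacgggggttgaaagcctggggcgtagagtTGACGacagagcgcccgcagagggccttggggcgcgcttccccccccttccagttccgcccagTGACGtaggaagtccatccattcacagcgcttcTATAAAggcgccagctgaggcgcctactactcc
Junb, chr8:84978749-84978998, minus strand: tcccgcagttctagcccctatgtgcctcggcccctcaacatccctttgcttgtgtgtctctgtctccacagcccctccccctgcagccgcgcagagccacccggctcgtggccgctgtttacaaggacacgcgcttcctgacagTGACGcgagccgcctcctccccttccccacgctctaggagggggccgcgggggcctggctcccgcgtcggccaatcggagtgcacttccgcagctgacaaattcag
Maff, chr15:79347480-79347509, plus strand, bases -40 to -11 of 1 of its 3 starts: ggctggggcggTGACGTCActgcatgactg

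RefSeq windows were found for 9 of the 10 members, 11 windows in all, and not for Fosl1. Within the 250 bases before the start, the core TGACG was in 7 of the 11 windows, of Atf3, Batf, Fos, Fosb, Junb and Maff, against 17.8% of all 32851 windows. The full TGACGTCA, which contains that core, was in 1 window, of Maff, against 1.55%. The NF-kB consensus was matched in 4 windows, of Fos, Fosb, Fosl2 and Maff, against 7.25%. The TATA box letters were in that of Fos, against 12.4%. TGANTCA and the CArG box were matched in 0 of the 11, against 6.75% and 1.47%. A match describes letters and does not show binding, and no match says only that these letters are not in this window. The members with the core include both Junb and Maff, higher in all 4 pairs, and Atf3, Batf and Fosb, whose intervals span 0 in both fits. Fos has the core as well, and its interval spans 0 without the block but not with it.

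The genes around AP-1 were followed through 6 lists. Of these, 5 were chosen for their roles in the pathway and 1, of heat shock genes, as a check on handling. In limma, 0 of their members passed over all genes, with or without the block. Among all 24011 genes only 1 passed with the block (0.00416%) and 0 without it. The absence of calls in the lists therefore says nothing about the pathway or about handling. Of 19 kinases upstream of AP-1, 15 were measured, 9 higher and 6 lower with hepcidin, with a median change of 0.01. Map3k8, the kinase TPL2 that links NF-kB signalling to the ERK pathway, was the 1 kinase of 15 with an unadjusted p under 0.05. Of all genes, 2.86% had such a p without the block and 4.91% with it. Map3k8 had it in both fits. It was higher in 4 of 4 pairs, at 7.84 with PBS and 8.20 with hepcidin, a change of 0.36 ± 0.10 (SE). Map2k2, which encodes the ERK kinase MEK2, had a change of 0.17 ± 0.10. The factors that act on the Fos promoter through the serum response element, SRF and its partners, were 6 of 6 measured, and their changes lay between -0.06 for Srf and 0.03 for Mrtfa.

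Of 19 other bZIP partners, 18 were measured, 7 higher and 11 lower, with a median of -0.03. Jdp2, a Jun-binding repressor, was higher in 4 of 4 pairs by 0.22 ± 0.14, and Batf3, a factor of dendritic cell development, was lower in 3 of 4 by -0.34 ± 0.20. At an unadjusted p under 0.05 there were 0 of these 18 genes without the block, against 2.86% of all genes, and 3 with it, against 4.91%. These 3 were Jdp2 (SE 0.07) and 2 named after their values were seen: Maf, at -0.19 (SE 0.07) and lower in 4 of 4 pairs, and Atf1, at -0.26 (SE 0.10) and lower in 3. In the other 5 lists these counts were equal in both fits. The 6 ubiquitin ligase components that turn over AP-1 proteins had a median of -0.01, with Trib2 at -0.17 ± 0.14 and Itch at 0.06 ± 0.08.

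Of 16 AP-1 targets, 14 were measured, 12 higher and 2 lower with hepcidin (85.7%, beside 50.4% of all genes), with a median of 0.11. The list was chosen with earlier results of these data known, so this share describes the list and tests nothing. Ptgs2, which encodes the inducible prostaglandin synthase COX-2, was the 1 target of 14 with an unadjusted p under 0.05. Of all genes, 2.86% had such a p without the block and 4.91% with it. Ptgs2 stood at 6.31 with PBS and 7.01 with hepcidin (0.70 ± 0.25, higher in 4 of 4 pairs). Hbegf, an EGF receptor ligand gene, differed by 0.21 ± 0.12. Several of these targets answer to NF-kB as well as AP-1. The F-test for the sample number was passed by 6 of the 14, against 5.60% of all genes. When only the 9274 genes reaching a mean of 6 were tested, 31.2% passed, so no excess is read from this count. The heat shock list had a median change of 0.08, with 4 of 6 higher, Dnajb1 at 0.14 ± 0.11 and Hsph1 at 0.12 ± 0.27.

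**Figure D4:**
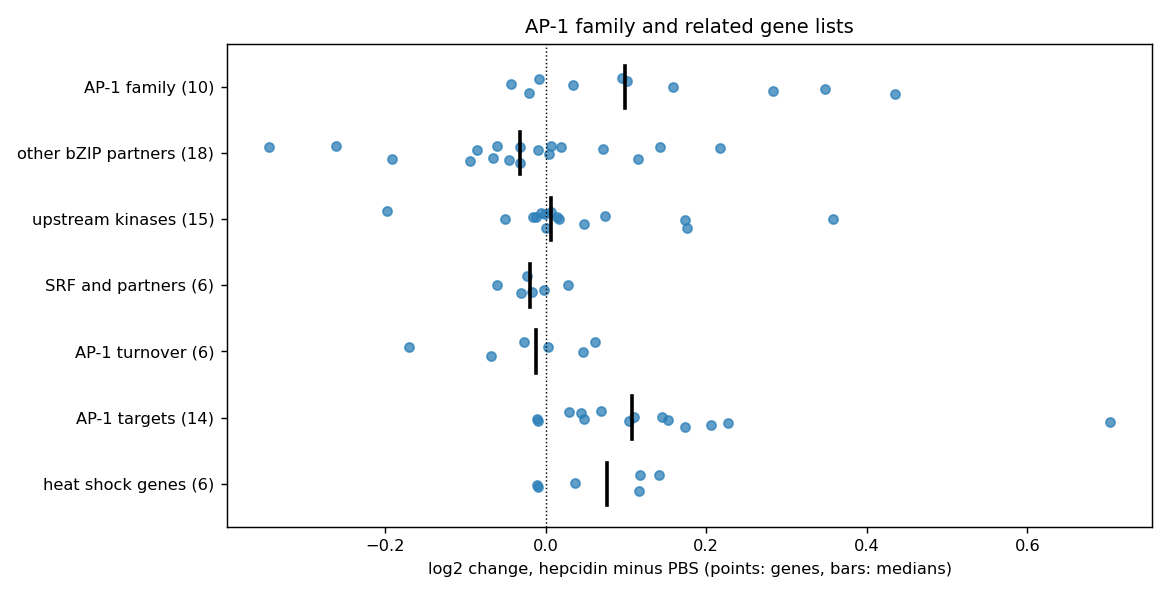
Log2 change (hepcidin minus PBS) of the AP-1 family and of 6 related lists; points are genes, black bars are medians, and the number of measured genes is in brackets. The family's median of 0.10 and that of the targets, 0.11, lie highest, with that of the heat shock genes close below at 0.08. Ptgs2 is the point at 0.70 and Map3k8 the kinase at 0.36.

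Among the 9273 other genes whose mean level reached 6, those whose values over the 8 arrays were most like those of Junb by Pearson correlation were Prpf6 (0.98), Rbm47 (0.97), Zfp36 (0.97), Dhx30 (0.93) and Tnfrsf10b (0.92). The arrays form 4 pairs, so these values describe a shared course and carry no test. Zfp36, which encodes the mRNA decay factor tristetraprolin, was higher in 4 of 4 pairs by 0.48 to 0.85. Prpf6 and Rbm47 spanned only 0.10 between numbers and differed by 0.09 and 0.08 with hepcidin, so their likeness to Junb was in shape and not in size. Most like Fos were Psma2, Septin9, Grsf1, Mrpl15 and Gm14586, at 0.98, 0.98, 0.97, 0.96 and 0.96. Their ranges between numbers, 0.20 to 0.38, were well below the 1.30 of Fos, and their changes with hepcidin lay between 0.02 and 0.10.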

How the data were processed

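The deposited values of the 8 arrays (biotin-labelled total RNA on Affymetrix whole-transcript arrays, per the labels' protocols) are log2 signals. The submitters' processing notes name RMA and affy 1.36.1 for them. Which probe sets were defined on which genome build is not given in the sources used here. Of 24973 probe sets, 24015 had a gene symbol and the brightest per symbol was kept, which left 24011 genes; low values were not filtered.

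Groups and numbers come from the sample titles. Hepcidin was compared with PBS in limma 3.58.1 (R 4.3.3, lmFit and eBayes), with Benjamini-Hochberg adjustment over all genes and a threshold of 0.05. SE and intervals are from this fit. Across genes, deviations from the group means correlated at 0.344 to 0.548 between same-numbered arrays and at -0.356 to 0.124 otherwise, so the numbers pair the arrays and the fit with the number as a block is given beside the other.

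The members and lists were chosen with earlier results of these data known. Named besides the 10 members were, per list, those past the threshold or else the 2 with the smallest unadjusted p, and the 5 genes most like Fos and Junb. Symbols of the lists were matched through the files or RefSeq, and those not matched are not analysed here. Figures used matplotlib 3.10.9. Other settings were array median centring, renewed quantile normalization, cyclic loess, a minimum mean level of 6, trend and robust variance, array weights, a fixed or random block, and leaving out arrays.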

Additional observations from a re-analysis of the deposited data

How the results depend on the processing

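The changes of Junb, Maff, Fos, Fosl2, Jun and Jund kept their sign in every alternative run, with Fos, Fosl2 and Jun near 0 in some (lowest 0.03, 0.02 and 0.01), and none of the 10 members passed in any of the 18 in which it had a value. The filter at a mean of 6 gave no value for Fosb, Maff and Batf. Signs turned for members near 0. Atf3 was at 0.0079 with median centring. With array weights Fosb was at 0.018 and Fosl1 at 0.048. Without both arrays numbered 1, with or without the replicate block, Fosb was at 0.10, Fosl1 at 0.14 and Batf at -0.050. With single arrays left out Atf3 ran from -0.10 to 0.075, Batf from -0.048 to 0.14, Fosb from -0.15 to 0.052 and Fosl1 from -0.22 to 0.19. Among all genes, 0 passed for hepcidin in limma (686 at an unadjusted p under 0.05), 3 with the filter at 6, 1 with the fixed replicate block, also without both arrays numbered 1, 5 with the random block, and 0 to 2 with single arrays left out.

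The F-test of the sample number was less stable. Against 1345 of 24011 genes (5.60%) and 1 of 10 members, 2894 of 9274 genes (31.2%) and 5 of 7 members passed with the filter at 6, and 2844 genes (11.8%) and 6 members with trend and robust variance. Both sets of members held Fos, Fosl1, Fosl2, Jun and Junb, and the second Atf3 in addition. With median centring 2 members passed, and without both arrays numbered 1, 166 genes and 0 members. The 5 differences between relatives kept their sign in all 9 alternatives, with lows of 0.04 for Fos over Fosb and 0.01 for Fos over Fosl2.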
